A study of Mus musculus with 90 samples.

Results

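The daily rhythms of gene expression were compared between caloric restriction and control diet in the livers of wild-type mice. The members are all libraries of the time series whose titles pair either diet with the genotype WT, 40 of the 90 samples of the series, 18 on caloric restriction and 22 on control diet. All were livers of male C57BL/6J mice that carried the floxed glucocorticoid receptor gene (GRfl/fl) without Cre recombinase, so that the receptor was intact in every group. The age at sampling is not in the labels. By the paper, mice on control diet ate ad libitum and were limited to feeding at night only in the final week. Mice on caloric restriction had their intake lowered over weeks to an end point of 40% fewer calories, with food given at lights off throughout. The length of timed feeding thus differed between the diets, and its part in the results was not tested. Livers were taken every 4 h at 6 zeitgeber times (ZT, hours after lights on). On caloric restriction there were 3 livers at each of ZT0, ZT4, ZT8, ZT12, ZT16 and ZT20. On control diet there were 3 livers at ZT0 and at ZT4, and 4 at each of ZT8, ZT12, ZT16 and ZT20. Each library is 1 liver, and PolyA RNA of the whole tissue was sequenced.

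The liver clock is a transcriptional feedback loop. Arntl and Clock (or its relative Npas2) activate genes with E-box sequences, among them the Per and Cry genes, whose proteins return to inhibit the activators, while the nuclear receptors Nr1d1 and Nr1d2 repress Arntl. Feeding, body temperature and glucocorticoids reach the same loop and also drive rhythms of their own in metabolic genes. Because each diet was prepared as its own batch of libraries, levels of a gene on one diet and on the other cannot be told apart from the batch, and no level was compared between diets. The question asked was whether the shape of the daily course differs: its amplitude, the time of its peak, or its course from one time point to the next. A constant shift of a gene between batches drops out of these measures. A batch difference that is not constant would remain in them, and it cannot be told apart from diet.

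Libraries on control diet held 11408194 to 17089004 estimated counts (median 13718257) and those on caloric restriction 14235473 to 20788575 (median 17697464). A library's top 10 genes held 18.4% to 22.4% of its counts on control diet and 21.4% to 25.8% on caloric restriction. Expression is given as TMM-scaled CPM. The mean scaling factor was lowest at ZT12 on both diets, at 0.958 on control diet and 0.876 on caloric restriction.

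Hepatocyte markers dominated every library. The 7 markers Alb, Ttr, Apoa1, Cyp2e1, Tat, Hnf4a and Serpina1c summed to a median of 96902 CPM on control diet and 127607 CPM on caloric restriction, with Alb the most abundant. At ZT12 on caloric restriction the sum was 169539, 174243 and 175034 CPM, above all other livers on that diet. Endothelial markers (Pecam1, Stab2, Clec4g, Kdr, Cdh5, Lyve1, with Clec4g the most abundant) summed on control diet to 85.1, 71.7, 75.04 and 82.8 CPM at ZT12 and 156, 178 and 169 CPM at ZT4. On caloric restriction the same markers summed to 162, 147 and 177 CPM at ZT12 and 156, 149.7 and 173 CPM at ZT4. The control livers at ZT12 and ZT4 did not overlap, while those on caloric restriction did. Kupffer and myeloid markers were low at ZT12 on both diets, with 84.0, 68.0, 56.4 and 85.9 CPM at ZT12 on control diet and 49.3, 79.1 and 57.4 CPM on caloric restriction, against 201, 135 and 178 CPM and 273, 137 and 131 CPM at ZT4. Stellate markers were also lowest at ZT12 on control diet, at 117, 92.5, 86.6 and 118 CPM. In the test of rhythm described below, all 6 endothelial markers were called, against 27.3% of all genes. In whole liver, fewer cells of a type and less RNA per cell cannot be told apart, and the part of cell composition in the results was not tested.

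In 2 libraries transcripts of exocrine pancreas stood out. The 10 markers of that tissue (Amy2a5 the most abundant, Prss1 without a count) summed to 737 CPM in control replicate 2 at ZT16 and 1193 CPM in replicate 3 at ZT12 on caloric restriction, against at most 4.65 CPM in any other library. Another library, replicate 2 at ZT8 on caloric restriction, had the highest sums on its diet for Kupffer and myeloid markers (331 CPM), cholangiocyte markers (87.9 CPM, with Epcam without a count) and neutrophil markers (5.54 CPM). Without the 2 libraries with pancreas transcripts, left out after seeing the data, the calls of Rora, Camk1d and Igfbp1 in the test described below were lost.

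On caloric restriction most rhythms in the liver ran earlier, and more of them ran deeper than shallower. A cosine with a period of 24 h was fitted to each gene on each diet, which gives an amplitude (peak above the daily mean, log2) and a peak time. The interaction of diet with the cosine and sine was tested over all genes with edgeR's quasi-likelihood test and Benjamini-Hochberg adjustment, and genes with an adjusted p under 0.05 were called. Of 12971 genes tested, 3537 (27.3%) were called and 5195 (40.1%) passed an unadjusted p under 0.05. The fitted peak lay earlier on caloric restriction in 2958 of the called genes (22.8% of those tested) and later in 579 (4.46%). The amplitude was larger in 2525 (19.5%) and smaller in 1012 (7.8%). So 83.6% of the called genes were earlier and 71.4% had a larger amplitude, the shares to hold beside the directions in each gene list below. Near a difference of 12 h, earlier and later cannot be told apart. The 95% interval of the peak difference reached past 12 h for several genes named below, such as Rora, Sgk1, Lcn2, Mt2, Igfbp1, Sec61b, Rpl10a, Rplp1, Uqcrq, Mbl1, C3, Vcam1 and Fbrs.

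A daily rhythm passed the threshold for 6746 genes (52%) on control diet and 7592 (58.5%) on caloric restriction, and 4890 genes (37.7%) passed it on both. The order of the diets turned with JTK_CYCLE, which called 6562 genes on control diet and 5789 on caloric restriction. Among these 4890 genes, chosen without regard to their difference, 4046 peaked earlier on caloric restriction (82.7%), with a median advance of 2.16 h (quartiles 0.720 and 3.64 h). The 95% interval of a gene's own peak difference lay wholly on the early side for 2426 of them and on the late side for 203. The advance did not belong to one time of day. Genes whose control peak fell between ZT20 and ZT24 advanced by a median of 2.61 h (801 genes) and those between ZT8 and ZT12 by 2.53 h (904 genes), while the smallest median, 1.63 h, belonged to the 643 genes that peaked between ZT4 and ZT8. Amplitudes of the 4890 genes were larger on caloric restriction for 68.6% of genes, with a median log2 ratio of 0.25. Over all 8838 genes with a rhythm in the average of both diets (68.1%), the median ratio was 0.33 and the median peak difference -1.82 h. Genes are not replicates, and these spreads over genes describe the transcriptome. With the samples 4 h apart, a median shift of this size rests on the fitted curve and lies below the sampling interval.

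**Figure D1:**
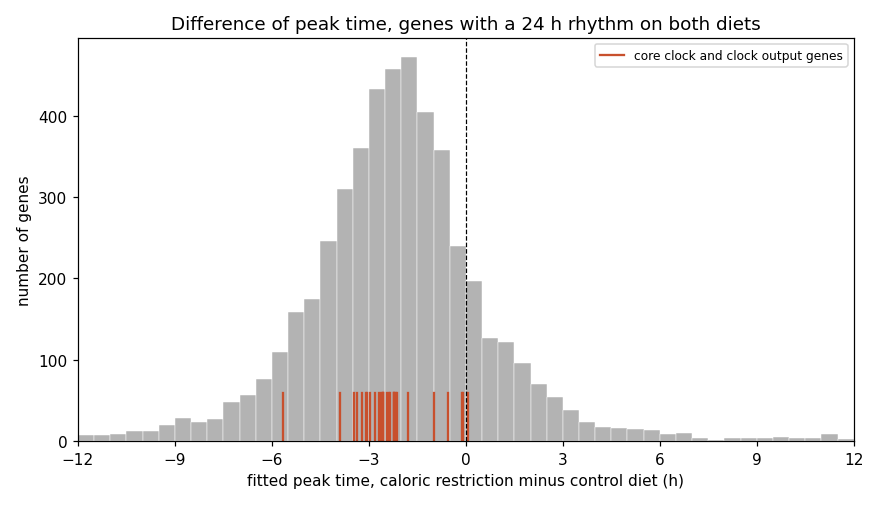
Histogram of the difference in fitted peak time, caloric restriction minus control diet in hours, for the 4890 genes with a 24 h rhythm on both diets, in bins of 0.5 h, with ticks for members of the core clock and clock output lists. Most genes lie left of 0, with a median of -2.16 h.

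The core clock moved as a whole. Of its 18 members, 13 were called (72.2%, against 27.3% of all genes), 12 of them earlier and 1 later, 7 with a larger and 6 with a smaller amplitude. All 15 members with a rhythm on both diets peaked earlier on caloric restriction, by a median of 2.55 h, against 2.16 h for all such genes. The median log2 ratio of amplitudes was 0.09 over the 18 members, which went both ways, against 0.29 over all genes tested.

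Among the activators, Arntl (ENSMUSG00000055116), the DNA-binding partner of Clock, was near 0 at ZT8 on both diets and left this trough earlier on caloric restriction. Its control livers at ZT12 had 0, 0.370, 1.33 and 0.941 CPM, and at ZT16 10.6, 12.2, 12.4 and 10.7 CPM. On caloric restriction, Arntl was at 0.222, 0.693 and 0 CPM at ZT8 and already at 13.9, 6.18 and 10.7 CPM at ZT12. Its decline also came first on caloric restriction, from 21.9, 26.6 and 30.5 CPM at ZT0 to 4.28, 4.65 and 6.32 CPM at ZT4, where the control livers held 18.02, 28.7 and 23.4 CPM. The livers at ZT8 and ZT12 overlapped on control diet and were fully apart on caloric restriction. The fitted peak came 3.202 h earlier (standard error 0.749; adjusted p = 0.00322, edgeR), at an amplitude of 2.58 on control diet and 2.23 on caloric restriction. Npas2 (ENSMUSG00000026077), which can replace Clock as Arntl's partner, was still near 0 at ZT16 on control diet, at 0, 0.126, 0 and 0.0709 CPM, and had risen to 5.63, 7.27 and 6.72 CPM by ZT16 on caloric restriction. It peaked 3.47 h earlier (95% interval 2.74 to 4.21 h), and because 16 of its 40 libraries held at most 3 counts, its amplitude is uncertain. Clock (ENSMUSG00000029238) had an advance of 5.65 h (standard error 1.59, adjusted p = 0.0360, edgeR), but its values scattered widely within groups, as in the control livers at ZT4 with 19.7, 8.83 and 1.66 CPM. Leaving out 1 liver ended the call of Clock in 10 of 40 cases, with an adjusted p of up to 0.0886 without control replicate 1 at ZT4.

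The repressors of the loop followed. Per1 (ENSMUSG00000020893), a Per gene that also responds to glucocorticoids, was low at ZT4 on control diet, at 3.86, 1.49 and 2.13 CPM, and had climbed to 39.1, 35.6 and 26.2 CPM at ZT4 on caloric restriction. At ZT0 it was low on both diets, at 3.86, 2.79 and 2.59 CPM and 2.88, 3.04 and 1.91 CPM. So on caloric restriction every ZT4 liver was above every ZT0 liver, and on control diet the 2 times overlapped. Per3 (ENSMUSG00000028957) behaved alike, with 7.42, 2.58 and 3.86 CPM at ZT4 on control diet and 52.3, 53.5 and 20.3 CPM on caloric restriction, where it reached 134, 106 and 119 CPM at ZT8. The peaks of Per1, Per2 and Per3 came 2.97 h, 2.56 h and 2.81 h earlier (standard errors 0.592, 0.508 and 0.564). Per2 had an amplitude of 1.62 on control diet and 2.12 on caloric restriction. It fell to 2.32, 4.72 and 3.53 CPM at ZT0 on caloric restriction from 110.1, 106 and 117 CPM at ZT16, and control livers held 14.4, 22.5 and 8.61 CPM and 107, 73.2, 114 and 99.99 CPM at the same times. Cry1 (ENSMUSG00000020038), the partner of the Per proteins, stood at 15.0, 16.1, 9.91 and 11.9 CPM at ZT12 on control diet against a peak of 48.9, 45.4, 41.0 and 43.5 CPM at ZT20. On caloric restriction its ZT12 livers, at 55.2, 43.4 and 44.7 CPM, overlapped those at ZT16 and ZT20, and the fitted peak was 3.37 h earlier (95% interval 2.50 to 4.23 h; adjusted p = 5.29e-06, edgeR). Cry2 peaked 2.34 h earlier and Ciart, a further repressor of the activator complex, 2.16 h earlier.

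Nr1d1 (ENSMUSG00000020889), the repressor of Arntl, peaked at ZT8 on control diet, at 167, 145, 177 and 146 CPM, and at ZT4 on caloric restriction, at 144, 222 and 158 CPM. At ZT0 its control livers were at 3.68, 3.06 and 4.62 CPM, while those on caloric restriction had risen to 46.2, 63.3 and 33.6 CPM from 1.06, 0.971 and 1.74 CPM at ZT20. No liver at ZT0 overlapped the ZT20 livers on caloric restriction. The advance of Nr1d1 was 2.44 h (standard error 0.360, adjusted p = 2.83e-05, edgeR), with amplitudes of 3.01 and 3.66. Its paralog Nr1d2 advanced by 2.23 h. Rora, which activates through the elements that Nr1d1 represses, was the member called as later, by 7.72 h, from an amplitude of only 0.12 on control diet that did not itself pass the threshold, and 18 of the 40 fits without 1 liver ended its call (adjusted p = 0.114 without replicate 1 at ZT12 on caloric restriction, edgeR). Bhlhe40 and Bhlhe41 (adjusted p 0.381 and 0.132) and the kinases that set Per stability, Csnk1d and Csnk1e (adjusted p 0.818 and 0.199, edgeR), were not called.

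Of the 13 transcription factors and direct targets that carry the clock's output, 9 were called (69.2%, against 27.3% of all genes), all 9 earlier (83.6% of all called genes), 7 with a larger and 2 with a smaller amplitude. Dbp (ENSMUSG00000059824), the PAR bZIP activator of D-box genes, is nearly silent around ZT0. Control livers held 4.90, 2.92 and 5.79 CPM of Dbp at ZT4 and 51.4, 48.0, 80.8 and 63.3 CPM at ZT12. On caloric restriction Dbp was at 24.2, 24.9 and 15.7 CPM at ZT4 and back to 3.89, 7.27 and 5.87 CPM at ZT12. The order of ZT4 and ZT12 was thus reversed between diets, with no overlap on either. Dbp peaked 3.05 h earlier (95% interval 2.36 to 3.73 h; adjusted p = 2.02e-06, edgeR). Its relative Tef advanced by 2.64 h, and Nfil3 (ENSMUSG00000056749), the repressor that competes with both, by 3.91 h. On caloric restriction Nfil3 had already fallen to 4.77, 6.28 and 11.7 CPM at ZT4 from 44.6, 49.4 and 54.1 CPM at ZT0, and at ZT12 it stood at 63.2, 51.9 and 52.4 CPM, above ZT16. On control diet, Nfil3 at ZT12 was at 18.1, 14.3, 12.2 and 15.5 CPM, below its ZT16 livers, with no overlap in either case. Hlf, the remaining PAR bZIP factor, was not called (adjusted p = 0.782, edgeR), with an advance of 0.557 h and amplitudes of 0.51 and 0.53. The direct targets Usp2, Wee1, Por, Nampt, Rgs16 and the factor Klf13 advanced by 2.23, 2.57, 3.09, 2.37, 2.12 and 2.69 h. Klf9, Klf10 and Klf15 were not called by edgeR, while DESeq2 called Klf15.

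**Figure D2:**
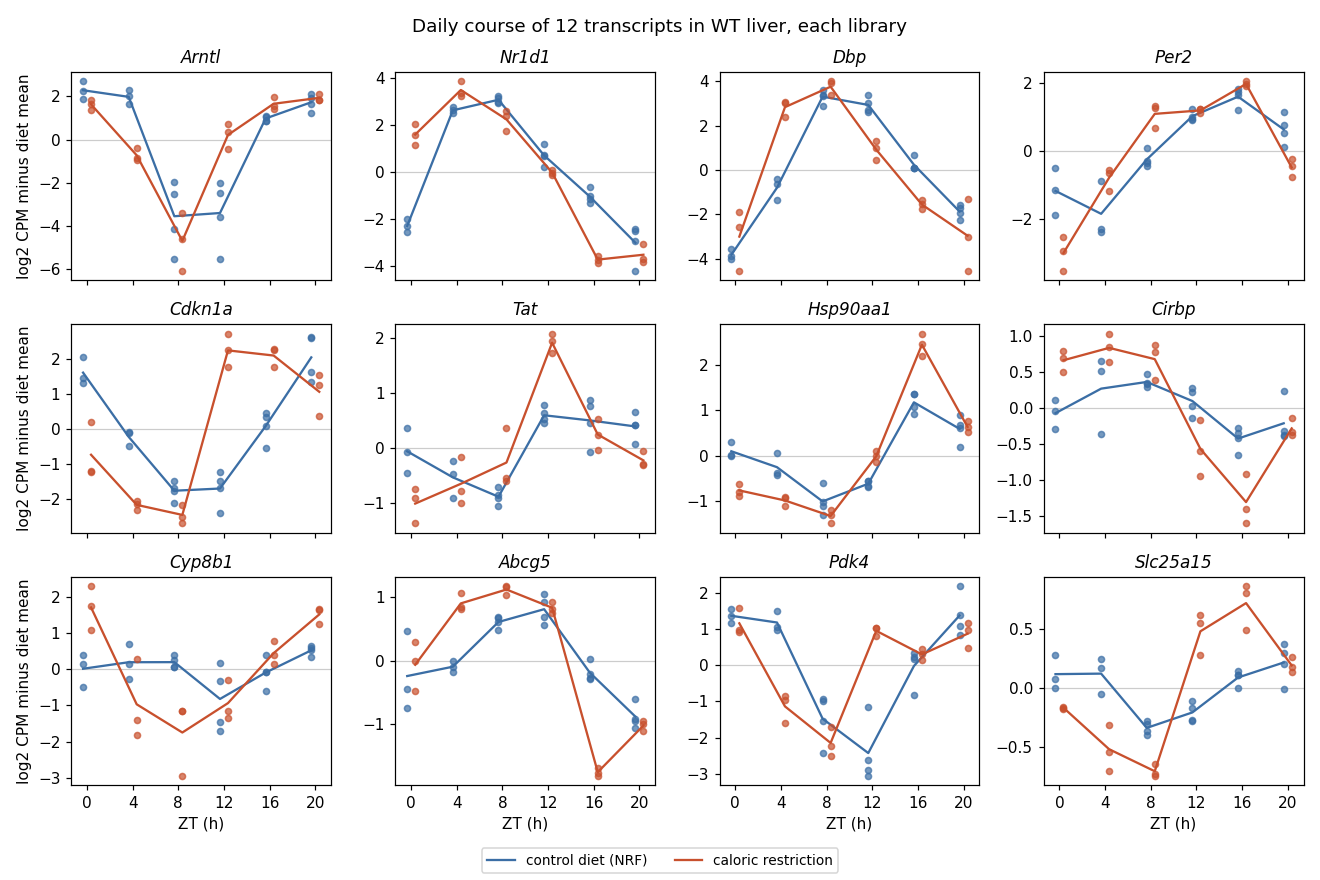
Daily courses of 12 genes, with ZT in hours on the horizontal axis and log2 CPM minus the mean of the same diet on the vertical axis, so that levels between diets are not compared; points are single livers and lines join group means. Nr1d1, Dbp and Cdkn1a rise and fall earlier on caloric restriction, and Hsp90aa1, Cirbp and Cyp8b1 swing more widely.

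Known binding sequences of the loop were read from RefSeq promoter windows (GRCm38.p6) of the clock genes. Of the 31 members of both clock lists, 24 had a window, and 6 of these (Bhlhe41, Ciart, Cry1, Klf15, Per1, Tef) held the E-box CACGTG, which reads the same on both strands and which 8.09% of all 27025 genes with a window hold. The D-box TTANNTAA, also its own reverse complement, was in the windows of Per3 and Tef and in those of 6.93% of all genes. The element bound by Nr1d1 and Rora, TAGGTCA, which reads TGACCTA on the other strand, was in those of Arntl and Nfil3 and of 2.97% of all genes. By windows, the E-box was in 7.15% of 32851, the D-box in 6% and this element in 2.61%. A match describes the letters of the window and no binding. The E-boxes of a repressor, a clock output factor and 2 further members are shown in capitals 5′ to 3′, from chr10:85185085-85185138 (minus strand) for Cry1, chr11:69098759-69098812 (plus strand) for Per1, chr3:95882315-95882368 (minus strand) for Ciart and chr15:81802522-81802575 (plus strand) for Tef, followed by a D-box of Per3 at chr4:151044792-151044847 (minus strand).
Cry1: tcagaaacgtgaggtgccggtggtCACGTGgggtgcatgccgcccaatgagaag
Per1: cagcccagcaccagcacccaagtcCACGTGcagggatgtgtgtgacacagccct
Ciart: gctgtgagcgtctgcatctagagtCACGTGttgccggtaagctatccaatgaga
Tef: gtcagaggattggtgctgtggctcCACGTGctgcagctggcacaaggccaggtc
Per3: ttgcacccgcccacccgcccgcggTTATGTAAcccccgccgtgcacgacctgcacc

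Of 24 genes that respond to glucocorticoids, 9 were called (37.5%, against 27.3% of all genes), 7 earlier and 2 later (Lcn2 and Mt2), 5 with a larger and 4 with a smaller amplitude. Without ZT12, 12 of the 24 were called (50%, against 26.6% of all genes), all 12 earlier. In the test of the 6 time points as separate levels, described further on, 16 of the 24 were called (66.7%, against 40.1% of all genes). The member with the smallest adjusted p was Cdkn1a (ENSMUSG00000023067), the inhibitor of cyclin-dependent kinases known as p21. Its control livers stayed low at ZT12, at 1.29, 1.11, 1.56 and 0.627 CPM, and peaked at ZT20, at 24.2, 9.87, 12.1 and 23.7 CPM. On caloric restriction Cdkn1a leapt from 0.775, 1.17 and 0.894 CPM at ZT8 to 38.0, 19.7 and 27.3 CPM at ZT12. Every ZT12 liver on caloric restriction was thus above every ZT8 liver by a wide margin, while on control diet the ZT8 and ZT12 livers overlapped. The peak came 5.69 h earlier (standard error 0.494; adjusted p = 4.57e-08, edgeR), at amplitudes of 2.19 and 2.52.

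Tat (ENSMUSG00000001670), the tyrosine aminotransferase long used as a marker of glucocorticoid action in liver, was high from ZT12 to ZT20 on control diet and drew into a spike at ZT12 on caloric restriction. On control diet Tat was at 2536, 2294, 2014 and 2127 CPM at ZT12 and 2321, 1987, 1553 and 1975 CPM at ZT20. On caloric restriction it was at 5659.7, 7223 and 6572 CPM at ZT12 and 1632, 1364 and 1384 CPM at ZT20. The 3 ZT12 livers lay above all others on caloric restriction, and on control diet ZT12 overlapped ZT16 and ZT20. The amplitude was 0.71 on control diet and 1.24 on caloric restriction, and the peak 4.09 h earlier (adjusted p = 6.72e-04, edgeR). Fkbp5, a chaperone that restrains the receptor, and Tsc22d3, the anti-inflammatory factor GILZ, advanced by 2.36 h and 2.54 h at nearly equal amplitudes (1.39 and 1.47; 1.24 and 1.24). Fkbp5 at ZT8 and ZT12 was at 99.8, 160.4 and 137 CPM and 329.7, 316 and 385 CPM on caloric restriction, with no overlap, and at 20.1, 9.44, 20.3 and 14.4 CPM and 61.9, 63.8, 50.4 and 109 CPM on control diet, also with none. The receptor's own transcript, Nr3c1, was nearly flat, with amplitudes of 0.11 and 0.17 (adjusted p = 0.686, edgeR). Sgk1, a kinase induced by the receptor, had peaks 11.4 h apart, nearly a reversal, at an amplitude of 0.24 on caloric restriction that did not pass the threshold for a rhythm. Sgk1 was not called once ZT12 was left out. Pck1, Angptl4, Zbtb16 and Sds were called with the time points as levels and not in the 24 h test. Lpin1 was called in neither (adjusted p = 0.152 in the 24 h test and 0.0744 with time points, edgeR).

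Lcn2 and Mt2 were called with rhythms past the threshold on caloric restriction only, and each call was lost without 1 of the 40 livers. Lcn2, an acute phase protein, was at 4.71, 170.1 and 2.26 CPM in the 3 ZT8 livers on caloric restriction, of which replicate 2 is the library with the most Kupffer, cholangiocyte and neutrophil transcripts on its diet. Without that library the adjusted p of Lcn2 was 0.322 (edgeR). The call of Lcn2 was also lost with the replicate block, by limma and by DESeq2. Mt2, a metallothionein, had an adjusted p of 0.00650, and of 0.0655 without control replicate 3 at ZT0 (edgeR). Its amplitude difference was 1.37 and stayed between 1.21 and 1.66 whichever liver was left out. Mt2 was at 38.9, 20.5 and 34.3 CPM at ZT12 on caloric restriction and at 3.25, 0.914 and 1.46 CPM at ZT20, with no overlap, and it was not called without ZT12.

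Most genes of protein folding under heat had larger amplitudes on caloric restriction. Of the 23 heat shock and temperature genes, 15 were called (65.2%, against 27.3% of all genes), all 15 earlier (83.6% of all called genes; 14 under median-of-ratios scaling, with 1 later), 13 with a larger and 2 with a smaller amplitude. The median amplitude of the 23 was 0.52 on control diet and 0.87 on caloric restriction, a median log2 ratio of 0.74 against 0.29 over all genes. Those with a rhythm on both diets advanced by a median of 1.85 h, against 2.16 h for all such genes. Hsp90aa1 (ENSMUSG00000021270), the inducible cytosolic Hsp90, peaked at ZT16 on both diets. It was at 75.9, 80.1, 65.9 and 108 CPM at ZT8 and 340.5, 308, 415 and 420.4 CPM at ZT16 on control diet. On caloric restriction the same times had 55.1, 48.3 and 58.8 CPM and 746, 615 and 869 CPM. By ZT20 the livers on caloric restriction had fallen to 229, 194 and 209 CPM, while the control livers, at 187, 247, 259 and 304 CPM, stayed nearer their peak. From the mean at ZT8 to that at ZT16, Hsp90aa1 rose 4.50-fold on control diet and 13.8-fold on caloric restriction. Relative to the low of the same diet, the peak was thus taller on caloric restriction, and it was narrower. On both diets ZT16 lay above all other times. Amplitudes were 0.96 and 1.69 (standard errors 0.15 and 0.17; adjusted p = 0.00156, edgeR). Hspa4, an Hsp70-family cochaperone, was nearly flat on control diet (amplitude 0.10) and rose to 187, 175 and 229 CPM at ZT16 on caloric restriction, above all other livers on that diet (amplitude 0.44).

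Cirbp (ENSMUSG00000045193), an RNA-binding protein induced by mild cold, ran in antiphase to these chaperones. On control diet it was at 26.3, 26.0, 28.4 and 25.1 CPM at ZT8 and 16.2, 15.4, 16.8 and 12.97 CPM at ZT16. On caloric restriction it was at 41.0, 46.8 and 35.6 CPM at ZT4 and 12.1, 8.52 and 7.46 CPM at ZT16. Neither pair of times overlapped, and the gap was wider on caloric restriction. The amplitude of Cirbp was 0.38 on control diet and 1.07 on caloric restriction, with the peak 2.40 h earlier (adjusted p = 1.07e-04, edgeR). Of 18 heat shock and temperature genes with a RefSeq promoter window, 4 (Chordc1, Hspd1, Hspe1, Hsph1) held the heat shock element, 3 alternating copies of GAA and its reverse complement TTC spaced by 2 bases, read on both strands, which 0.662% of all 27025 genes with a window hold (0.603% of 32851 windows). Hspd1 and Hspe1, the mitochondrial chaperonin pair, share 1 bidirectional promoter and so the same element. It is shown from the side of Hspd1, in capitals, at chr1:55088035-55088095 (minus strand) in GRCm38.p6, where it overlaps a match in the other-strand form.
Hspd1: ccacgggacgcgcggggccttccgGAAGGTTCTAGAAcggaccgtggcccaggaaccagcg

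Several genes of the fed and fasted state differed in their course at ZT12. Of 24 tested genes of insulin and FoxO signaling, 9 were called (37.5%, against 27.3% of all genes), and 19 with time points as levels (79.2%, against 40.1%). Of the 9, 8 were earlier and 7 had a larger amplitude, beside 83.6% and 71.4% of all called genes. Ddit4 (ENSMUSG00000020108), an inhibitor of mTORC1, was at 4.04, 7.46 and 3.58 CPM at ZT8 on caloric restriction and at 31.2, 84.3 and 60.2 CPM at ZT12. By ZT16 it was back to 19.5, 12.1 and 11.7 CPM. On control diet it climbed more slowly, from 21.0, 8.88, 5.07 and 9.33 CPM at ZT12 to 35.4, 18.5, 16.7 and 17.04 CPM at ZT20, with groups that overlapped. Its peak came 4.97 h earlier and its amplitude was 1.14 on control diet and 1.77 on caloric restriction (adjusted p = 1.98e-04, edgeR). Trib1, a pseudokinase that lowers lipogenesis, had no rhythm past the threshold on control diet (amplitude 0.15) and an amplitude of 0.71 on caloric restriction, called with all time points and not without ZT12. Eif4ebp3, an inhibitor of translation, advanced by 3.06 h. Igfbp1 (ENSMUSG00000020429), which binds insulin-like growth factors and falls with insulin, held 168, 614 and 261 CPM at ZT12 on caloric restriction and 11.5, 3.19 and 3.36 CPM at ZT16. All ZT12 livers on caloric restriction lay above all others on that diet. Igfbp1 scattered on control diet, for instance 4.73, 20.002 and 49.2 CPM at ZT0, and its 24 h call (adjusted p = 0.0395) was lost in 18 of 40 fits without 1 liver (adjusted p up to 0.162 without replicate 2 at ZT12 on caloric restriction). With time points as levels its adjusted p was 8.91e-04 (edgeR).

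Of 24 genes of gluconeogenesis and glucose handling, 8 were called (33.3%, near the 27.3% of all genes). All 8 peaked earlier, as did 83.6% of all called genes, 3 with a larger and 5 with a smaller amplitude. Pdk4 (ENSMUSG00000019577), the kinase that shuts off pyruvate oxidation in fasting, was at 4.78, 1.63, 1.33 and 1.176 CPM at ZT12 on control diet, its trough, and at 45.7, 45.4 and 39.1 CPM at ZT12 on caloric restriction, close to its peak. At ZT8 it was low on both, with 5.34, 1.87, 3.56 and 5.51 CPM and 4.597, 6.77 and 3.84 CPM. On caloric restriction the ZT12 livers were all above ZT8, and on control diet the 2 times overlapped. Pdk4 peaked 4.30 h earlier and its amplitude was 1.93 on control diet and 1.23 on caloric restriction (adjusted p = 8.71e-04, edgeR). Glycogen synthase Gys2 and the glucose-6-phosphate transporter Slc37a4 advanced by 2.03 h and 2.07 h at similar amplitudes.

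Of 25 tested bile acid genes, 8 were called (32%, near the 27.3% of all genes), 6 earlier, 2 later, 5 larger and 3 smaller. Once ZT12 was left out, 14 were called (56%, against 26.6% of all genes). Cyp8b1 (ENSMUSG00000050445), the sterol 12-alpha-hydroxylase that sets the share of cholic acid, held no rhythm past the threshold on control diet, at 439, 371 and 241 CPM at ZT0 and 399.8, 350.0, 354 and 444 CPM at ZT8. On caloric restriction it was at 376, 599.8 and 871 CPM at ZT0 and 80.7, 23.2 and 79.6 CPM at ZT8. ZT0 and ZT8 overlapped on control diet and were far apart on caloric restriction. Its amplitude was 0.36 (standard error 0.18) on control diet and 1.73 (0.20) on caloric restriction (adjusted p = 3.55e-04, edgeR). Hsd3b7 (ENSMUSG00000042289), an early enzyme of bile acid synthesis, was at 715, 660.0 and 743 CPM at ZT0 and 129, 119 and 119 CPM at ZT12 on caloric restriction. On control diet it was at 595, 539.8 and 566 CPM and 306, 246, 305 and 225 CPM. Neither diet showed overlap, and the range was wider on caloric restriction, with amplitudes of 0.68 and 1.22 and a peak 2.81 h earlier (adjusted p = 5.35e-07, edgeR). Abcg5, which exports sterols into bile, had amplitudes of 0.74 and 1.36 and an advance of 2.60 h. It dropped on caloric restriction from 124, 119 and 134 CPM at ZT12 to 21.6, 19.9 and 20.5 CPM at ZT16, with no overlap.

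Cholesterol synthesis genes with a rhythm on both diets had almost no median advance, and their difference from all such genes was not tested. Of the 27 genes of this list, 2 (7.41%, against 27.3% of all genes) were called in the 24 h test, both earlier, among them Insig2. Without ZT12 there were 4 (14.8%, against 26.6% of all genes), all 4 earlier. The 16 members with a rhythm on both diets had a median advance of 0.00895 h, against 2.16 h for all such genes, with 8 earlier. With time points as levels, 14 of the 27 were called (51.9%, against 40.1%). Insig2, which holds back the activation of sterol synthesis, advanced by 2.58 h, its amplitude going from 1.13 to 0.81. Fatty acid and triglyceride synthesis had 5 of 24 genes called (20.8%, against 27.3% of all genes), all 5 earlier. Without ZT12, 8 of 23 were called (34.8%, against 26.6% of all genes). Agpat2, an enzyme of triglyceride assembly, had amplitudes of 0.55 on control diet and 0.99 on caloric restriction, the citrate carrier Slc25a1 0.11 and 0.35, and the elongase Elovl5 1.08 and 0.72.

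Fuel oxidation had a larger share of called genes than the 27.3% of all genes. Of 38 genes of fatty acid oxidation and ketogenesis, 16 were called (42.1%), 12 earlier and 4 later. Acaa1a (ENSMUSG00000036138), a peroxisomal thiolase, peaked 5.81 h earlier (95% interval 4.52 to 7.09 h; adjusted p = 1.74e-06, edgeR). It went from 135, 129 and 123 CPM at ZT0 to 269.7, 225, 238 and 243 CPM at ZT12 on control diet. On caloric restriction the same times held 161, 162 and 168 CPM and 163, 161 and 173 CPM. They did not overlap on control diet and did on caloric restriction, where the low came at ZT16 and ZT20. The dehydrogenase Acads and the ketone body enzyme Bdh1 advanced by 8.73 h and 4.73 h. Cyp4a14, a fatty acid hydroxylase, had amplitudes of 1.44 on control diet and 0.45 on caloric restriction, and was not called without ZT12. Among 35 tested peroxisome genes, 14 were called (40%), 10 earlier and 11 with a larger amplitude, with the carnitine octanoyltransferase Crot 3.03 h earlier and the import factor Pex13 going from an amplitude of 0.08 to 0.31.

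Of 31 genes of amino acid breakdown and the urea cycle, 15 were called (48.4%, against 27.3% of all genes), 13 earlier and 2 later (83.6% of all called genes were earlier), 8 larger and 7 smaller. Slc25a15 (ENSMUSG00000031482), the mitochondrial ornithine carrier of the urea cycle, had the smallest adjusted p of this list. It was at 224, 211 and 209 CPM at ZT8 and 612, 492 and 636 CPM at ZT16 on caloric restriction. On control diet it was at 225, 239, 219.8 and 235 CPM and 321, 313, 290.1 and 313 CPM. Both diets kept these times apart, with the wider gap on caloric restriction, an amplitude of 0.27 against 0.67 and an advance of 5.18 h (adjusted p = 4.20e-06, edgeR). Bckdha, the branched-chain keto acid dehydrogenase subunit, advanced by 5.64 h and Amt, of the glycine cleavage system, by 2.997 h.

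Of 36 proteasome genes, 19 were called (52.8%, against 27.3% of all genes). All 19 peaked earlier, as did 83.6% of all called genes, 12 with a larger and 7 with a smaller amplitude (71.4% of all called genes larger). The 18 proteasome genes with a rhythm on both diets advanced by a median of 4.19 h, against 2.16 h for all such genes. Psmd14 (ENSMUSG00000026914), the deubiquitinase of the proteasome lid, was lowest at ZT12 on both diets, at 38.0, 37.1, 32.4 and 29.1 CPM and 26.9, 27.6 and 23.9 CPM. At ZT20 on caloric restriction it was highest, at 48.8, 52.8 and 53.2 CPM, whereas control livers at ZT20 held 38.3, 39.6, 40.9 and 45.2 CPM and peaked at ZT0 with 44.4, 50.0 and 43.8 CPM. The ZT20 livers on caloric restriction lay above all others on that diet, and the control ZT20 and ZT0 livers overlapped. Psmd14 advanced by 4.61 h with amplitudes of 0.21 and 0.45 (adjusted p = 1.90e-05, edgeR). Psmc6, an ATPase of the cap, advanced by 8.12 h at the same small amplitude of 0.15, and the activator subunit Psme1 went from 0.09 to 0.38. Of 41 autophagy and lysosome genes, 16 were called (39%), 14 earlier, among them Wipi1, an early factor of the autophagosome (5.86 h; amplitudes 0.28 and 0.72), Atg2a (5.37 h) and the mitophagy receptor Bnip3 (1.85 h). The 20 genes of the unfolded protein response with a rhythm on both diets advanced by a median of 1.40 h, less than all such genes. In this list 10 of 28 genes were called (35.7%), 9 earlier and 7 with a larger amplitude. With a 12 h cosine and sine added to the model the count was 18 (64.3%, against 34.7% of all genes), 17 earlier and 15 larger, and with time points as levels it was 20 (71.4%, against 40.1%). The count of 10 fell to 5 without replicate 3 at ZT16 on caloric restriction or control replicate 1 at ZT4, and to 6 without replicate 3 at ZT0 or replicate 1 at ZT16 on caloric restriction or control replicate 2 at ZT4. Herpud1, which serves the disposal of misfolded proteins at the endoplasmic reticulum, advanced by 2.79 h. It was at 983, 743 and 810.4 CPM at ZT12 and 199, 151 and 191 CPM at ZT16 on caloric restriction, with no overlap, and at 608, 564, 442 and 413 CPM and 502, 384, 281 and 429 CPM on control diet, with overlap. Sec61b, of the translocation channel, had fitted peaks 10.2 h apart with no determined direction, and Derl1 peaked 6.84 h earlier. Both had amplitudes of 0.22 or less.

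Cytosolic ribosomal proteins and oxidative phosphorylation had small rhythms, with median amplitudes of 0.12 and 0.14 on control diet against 0.24 over all genes tested, and 0.13 and 0.15 on caloric restriction against 0.28. Of 75 cytosolic ribosomal proteins, 22 were called, a share of 29.3% beside 27.3% of all genes, 19 of them earlier, 13 with a larger and 9 with a smaller amplitude. Without ZT12 there were 31 (41.3%, against 26.6% of all genes), 6 larger and 25 smaller. Without the 2 libraries with pancreas transcripts there were 18 (24%, against 25.2% of all genes), 5 larger and 13 smaller. So no direction of amplitude can be given for this group. The count was 36 without replicate 1 at ZT4 and 14 without replicate 2 at ZT16, both on caloric restriction. Of 57 genes of oxidative phosphorylation, 22 were called (38.6%), 19 earlier, 8 larger and 14 smaller. The split was 3 larger and 22 smaller without ZT12, 3 and 17 without the 2 libraries with pancreas transcripts, and 13 larger of 27 called without replicate 2 at ZT8 on caloric restriction, so that no direction of amplitude can be given here either. Rpl36 of the large ribosomal subunit advanced by 7.58 h. The peak differences of Rpl10a and Rplp1 of the same subunit, -11.03 h and 11.6 h, lie near antiphase and have no determined direction, and the control amplitude of Rplp1 was only 0.06. Uqcrc1 of respiratory complex III and Atp5d of the ATP synthase advanced by 5.84 and 9.32 h. Uqcrq of complex III had fitted peaks 10.4 h apart, with an interval that reached past 12 h and no determined direction. Amplitudes of these genes lay between 0.15 and 0.19. Among 40 genes of ribosome biogenesis, 9 were called (22.5%), 8 earlier and 7 larger. Without ZT12, 5 were called (12.5%, against 26.6% of all genes). With the 12 h cosine and sine there were 15 (37.5%, against 34.7% of all genes), 9 larger and 6 smaller, and with time points as levels 24 (60%, against 40.1%). Fbl and Ddx21 advanced by 7.79 h and 6.23 h, and the nucleolar factor Npm1 went from an amplitude of 0.20 to 0.47; the calls of Ddx21 and Npm1 were lost without ZT12.

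Of 27 tested cell cycle genes, 6 were called (22.2%, against 27.3% of all genes), 5 earlier, including Ccne2, a cyclin of the entry into S phase, by 4.48 h. Of 21 immediate early genes, 7 were called (33.3%, against 27.3% of all genes), 5 earlier and 2 later. Without ZT12, 3 were called (14.3%, against 26.6% of all genes). With time points as levels 5 were called (23.8%, against 40.1% of all genes). Egr1 (ENSMUSG00000038418), an early growth response factor, had the largest drop of amplitude among called genes of at least 5 CPM on each diet. Its control livers held 67.4, 23.1 and 73.9 CPM at ZT4 and 1.20, 0.941, 1.55 and 0.425 CPM at ZT16, and those on caloric restriction 8.25, 8.26 and 11.7 CPM and 6.56, 13.8 and 1.37 CPM. The 2 times were apart on control diet and overlapped on caloric restriction, with amplitudes of 2.63 and 0.81 (adjusted p = 0.0133, edgeR). Single livers reached far, such as 5.48, 86.1 and 15.3 CPM at ZT0 on caloric restriction. Jun and Id1 were called with amplitudes of 0.23 and 0.24 on control diet and 0.69 and 0.78 on caloric restriction. Among 36 acute phase and complement genes, 8 were called (22.2%), all 8 with a larger amplitude, 5 earlier and 3 later. Without ZT12 there were 17 (47.2%, against 26.6% of all genes), 14 larger and 3 smaller, 8 earlier and 9 later. The count was 13 without replicate 3 at ZT8 or without replicate 2 at ZT12, both on caloric restriction, and 10 (7 larger) without replicate 2 at ZT8 on that diet. Crp peaked 6.49 h earlier and the mannose-binding lectin Mbl1 9.53 h earlier, whereas C3, the central complement component, had an amplitude of 0.12 on control diet, without a rhythm past the threshold, and of 0.24 on caloric restriction, with fitted peaks 11.4 h apart.

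The called genes divide by where a rhythm passed the threshold. It did so on both diets for 2024 of the 3537 (57.2%), whose median amplitude was 0.29 on control diet and 0.40 on caloric restriction. A further 998 (28.2%) had a rhythm past the threshold on caloric restriction and not on control diet, with median amplitudes of 0.10 and 0.33, and 459 (13%) the reverse, with 0.33 and 0.13. For 56 (1.58%) neither rhythm passed. Over all called genes with at least 5 CPM on each diet, the 5 largest gains of amplitude included Serpina1e and Hsd3b5, which are abundant in male liver. Serpina1e (ENSMUSG00000072849), an alpha-1 antitrypsin gene, swung on caloric restriction between 26.2, 15.1 and 59.4 CPM at ZT8 and 2577, 1425 and 1308 CPM at ZT20. On control diet its amplitude was 0.16, with a standard error of 0.35, against 2.21 on caloric restriction (adjusted p = 0.00291, edgeR). Hsd3b5, a steroid reductase, held 70.9, 58.4 and 43.7 CPM at ZT20 and 0.886, 0.160 and 1.79 CPM at ZT8 on caloric restriction. Both genes were higher in every ZT20 liver than in every ZT8 liver on caloric restriction, and both belong to families of near-identical copies between which reads can be misassigned. Gm4841, an interferon-inducible GTPase gene, was also named by this rule, and its call was lost in 2 of 40 fits without 1 liver (adjusted p up to 0.178 without replicate 1 at ZT4 on caloric restriction, edgeR). Its gain of 1.62 was as low as 0.07 in those 40 fits. The call was also lost without ZT12, with control replicates 1 to 3 only, with the replicate block, by limma and by DESeq2, so this gain is not stable. The remaining pair, Rps13-ps1 and ENSMUSG00000083840, had 25 and 13 libraries with at most 3 counts, which leaves their amplitudes without a usable estimate. The largest drops were those of Egr1, Cyp4a14, Scd2, Camk1d and Pdk4, of which Scd2 and Camk1d lost their call in 24 and 14 of the 40 fits without 1 liver. The adjusted p (edgeR) was up to 0.189 for Scd2, without control replicate 3 at ZT0, and up to 0.0657 for Camk1d, without replicate 2 at ZT20 on caloric restriction. Both calls were also lost with the replicate block and without ZT12.

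**Figure D3:**
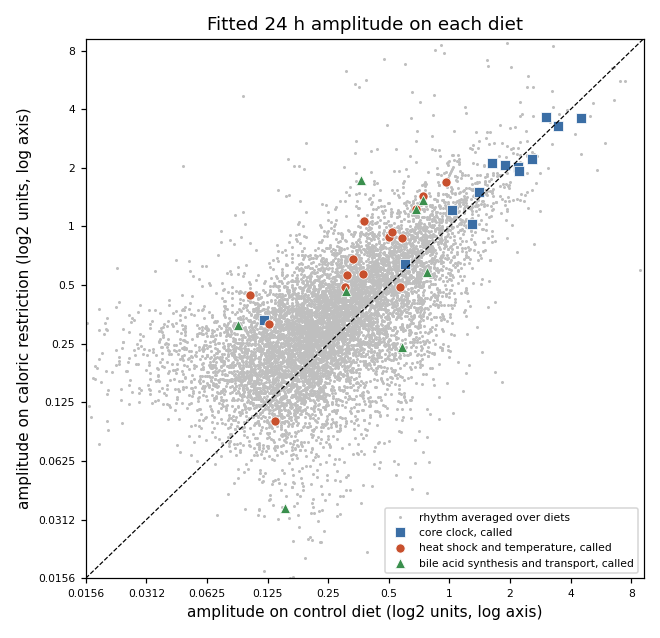
Fitted 24 h amplitude on control diet (horizontal, log2) against that on caloric restriction (vertical, log2) for the 8838 genes with a rhythm in the average of both diets, with 1 point per gene, 40 genes outside the axes and a diagonal at equal amplitudes. More points lie above the diagonal than below it.

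Some genes peaked many hours apart on the 2 diets. By the rule of at least 0.5 in amplitude on both, the 5 largest differences were those of Vcam1, Fbrs, Igfbp1, Gbp11 and Mup2. Vcam1, an adhesion molecule of endothelial and stellate cells, had peaks 11.5 h apart (standard error 1.54), at a summed endothelial marker level that itself followed the time of day on control diet. Calls of the other 4 were less stable, and were lost in 5 (Fbrs), 18 (Igfbp1), 1 (Gbp11, adjusted p = 0.0502 without replicate 1 at ZT4 on caloric restriction, edgeR) and 17 (Mup2) of the 40 fits without 1 liver. The adjusted p (edgeR) was up to 0.0611 for Fbrs, without replicate 2 at ZT16 on caloric restriction, and up to 0.0819 for Mup2, without control replicate 4 at ZT12. All 4 calls were also lost with the replicate block and without ZT12, and those of Igfbp1 and Gbp11 by limma.

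A test with the 6 time points as separate levels catches changes of any shape. It called 5202 of 12971 genes (40.1%), of which 3095 (23.9%) were also called in the 24 h test, 2107 (16.2%) were called with time points as levels only, and 442 (3.41%) in the 24 h test only. The largest departure from the parallel course fell at ZT12 for 1749 of the 5202 genes (33.6%) and at ZT16 for 1554 (29.9%), against 253 (4.86%) at ZT20. Over all genes tested the shares were 27.6%, 24.6% and 8.59%. At ZT12 1059 of the 1749 genes were relatively higher on caloric restriction and 690 lower. The ZT12 libraries on caloric restriction also had the lowest scaling factors and the highest hepatocyte marker sums, and the part of these in the result was not tested. Without ZT12, chosen after seeing the data, the 24 h test called 3428 genes, 2514 of them shared with the 3537 (71.1%). Of the calls without ZT12 83.5% were earlier, against 83.6% with it. The median peak difference over rhythmic genes was then -2.15 h, and the median log2 amplitude ratio 0.38. With the 12 h cosine and sine, 4503 genes were called (34.7%). The counts then also rose in lists where the text above gives the 24 h test. They were 14 for glucocorticoid-responsive genes (58.3%), 12 for gluconeogenesis (50%) and 10 for fatty acid synthesis (41.7%). For cholesterol the count was 4 (14.8%), for bile acids 13 (52%) and for acute phase genes 14 (38.9%), beside the 34.7% of all genes.

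The same 2 library batches held 38 livers of GRLKO mice, in which Alb-Cre deletes the floxed receptor in hepatocytes. In these, 2512 of 13057 genes (19.2%) were called for diet by 24 h rhythm, with 4406 (33.7%) at an unadjusted p under 0.05. The 4419 genes rhythmic on both diets advanced by a median of 2.02 h, with a median log2 amplitude ratio of 0.18, beside 2.16 h and 0.25 in WT. Dbp advanced by 2.79 h in GRLKO livers and 3.05 h in WT, and Cirbp by 2.38 h and 2.40 h. The difference itself, tested as the interaction of genotype, diet and 24 h rhythm, was called for 4 of 13376 genes (0.0299%), with 1233 (9.22%) at an unadjusted p under 0.05, and for 12 genes without a filter and 0 with a replicate block. Of the genes named by rule, none was among the 4. The smallest p was that of Gm4841 (2.78e-05, adjusted p = 0.0526, edgeR). Bdh1 had an unadjusted p of 1.09e-04 (adjusted p = 0.0783) and Eif4ebp3 of 1.36e-04 (adjusted p = 0.0825). Eif4ebp3 peaked 3.06 h earlier in WT and 0.553 h later in GRLKO livers. Acads (unadjusted p 1.94e-04, adjusted p = 0.0901) peaked 8.73 h earlier in WT and 2.94 h later in GRLKO livers. In GRLKO livers its amplitude on control diet was only 0.037, which leaves the peak time there poorly determined. Psme1 (3.93e-04), Npas2 (7.32e-04) and Cdkn1a (9.20e-04) followed by unadjusted p. Cdkn1a advanced by 3.24 h in GRLKO and 5.69 h in WT livers (adjusted p = 0.153). A p that misses the threshold does not show that the genotypes had the same change of rhythm.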

How the data were processed

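PolyA RNA of whole livers was sequenced by the authors, who checked reads with FastQC and quantified transcripts with Salmon (build mm10 in their notes). The deposited tables hold expected counts per gene (estimated, not normalized). The 40 libraries titled with either diet, a zeitgeber time and WT were used. The single-time-point libraries of the series were left out, because no rhythm can be fitted to them. Counts were rounded, scaled by TMM, and filtered with filterByExpr at a minimum count of 10 by diet and time point. A model with an intercept, cosine and sine of 24 h time for each diet was fitted with edgeR 4.0.16 in R 4.3.3. The quasi-likelihood F test was applied to the 2 interaction coefficients, to the rhythm within each diet and, in a second model, to the 5 coefficients of diet by time point. P-values were adjusted by Benjamini-Hochberg over all genes tested, with a threshold of 0.05. Amplitudes and peak times come from the fitted coefficients, and their errors from the fit. A prior count of 2 was used only for the log2 CPM values of the daily courses. The tests were tested on simulated data. The diet by rhythm test was also run on the 38 GRLKO livers, and the interaction with genotype on both sets together.

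Named genes are all testable members of the lists core clock, clock output and glucocorticoid-responsive genes, then, of called genes with a mean of at least 5 CPM on each diet, the 5 largest gains and the 5 largest drops of amplitude and the 5 largest differences of peak time among those with an amplitude of at least 0.5 on both diets, and in each other gene list the 3 called members with the smallest p. Not every gene that meets the rule is printed. The pieces of this rule, and the lists and members themselves, were chosen with earlier results of these data known. Replicates with the same number do not pair across groups (median correlation of residuals 0.00149 over 204 pairs, -0.00364 over 528 pairs with other numbers), and none of 48 pairs of libraries within a group was identical. Alternatives were another scaling, other filters, fewer mice, thinned counts, a replicate block, a 12 h term, limma 3.58.1, DESeq2 1.42.0, JTK_CYCLE and leaving out each liver.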

Additional observations from a re-analysis of the deposited data

Results flagged for a closer look

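Each gene drawn, marker sum and library measure was checked in the 4 control livers of a time point, 152 checks in all. The same livers entered the checks of many genes. In 8 of the 152, a sample lay far from the other 3. Chance gives about 1 in 20, so this count is near the chance rate. Each was the highest of its group. Dbp was at 12.4 CPM in replicate 2 at ZT16 (the others 8.12 to 8.29) and Fkbp5 at 24.0 CPM in replicate 4 at ZT20 (14.8 to 16.1). Cirbp reached 24.2 CPM (15.6 to 16.4) and Ddit4 35.4 CPM (16.7 to 18.5), both in replicate 1 at ZT20. Pdk4 was at 4.78 CPM in replicate 1 at ZT12 (1.176 to 1.63), Lcn2 at 7.79 CPM in replicate 4 at ZT20 (1.51 to 1.89) and Sec61b at 48.3 CPM in replicate 4 at ZT8 (38.7 to 39.7). Markers of exocrine pancreas summed to 737 CPM in replicate 2 at ZT16 (0.425 to 4.65). The causes were not tested.

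In the test of genotype by diet by 24 h rhythm, the change of rhythm differed between WT and GRLKO livers for 4 genes by the adjusted p of edgeR's quasi-likelihood test. They are Gm10241 (0.0357), Hnrnpll (0.0357), Mettl7b (0.0420) and Tgtp1 (0.0468), none of them named by rule, and they were chosen after their values were seen. By edgeR, the count was 0 with the replicate block, against 4 without it (1233 at an unadjusted p under 0.05 without the block). Mettl7b peaked 0.962 h later on caloric restriction in WT livers, where its interaction was not called (adjusted p = 0.222), and its peak differed by -2.69 h in GRLKO livers. Tgtp1, an interferon-inducible GTPase, differed by 4.30 h in WT and -6.17 h in GRLKO livers.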

How the results depend on the processing

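The 24 h interaction called 2936 to 4503 genes over the alternatives run, against 3537, and 3137 to 3659 with any 1 liver left out. It called 3525 with median-of-ratios scaling (3444 shared), 3138 without a filter, 3250 with thinned counts, 3454 with limma and 3795 with DESeq2. With the replicate number as a block there were 3054, of which 2999 were shared. A 12 h term added gave 4503, and equal numbers of mice on both diets (control replicates 1 to 3) 2936. Chosen after seeing the data, leaving out the 2 libraries with pancreas transcripts gave 3325 and leaving out ZT12 3428. In each of these, 83.0% to 85.3% of the called genes peaked earlier on caloric restriction.

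With 1 liver left out, the time point test called 4616 to 5341 genes, the rhythm on control diet 6351 to 6909 and on caloric restriction 7260 to 7699. The median amplitude ratio lay between 0.27 and 0.36 and the median peak difference between -1.97 and -1.71 h. Called genes with a rhythm on caloric restriction only numbered 841 to 1066, on control diet only 383 to 507 and on both 1775 to 2053. The GRLKO interaction called 2063 to 2754. JTK_CYCLE turned the order of the diets, with 6562 genes on control diet and 5789 on caloric restriction.

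Genotype by diet by rhythm called 12 genes without a filter and, by edgeR, 0 with the replicate block, against 4 genes (1233 at an unadjusted p under 0.05), and the cause was not tested. Without ZT12 the amplitude difference of Rps13-ps1 reversed to -0.70, in a gene with too few counts for an estimate. Of the 94 named genes called, 94 stayed so under median-of-ratios scaling, 91 under DESeq2 and without the pancreas libraries, 86 under limma and with the replicate block, 85 with control replicates 1 to 3 and 77 without ZT12.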

Other observations

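On control diet, 1487 of the 6746 rhythmic genes peaked between ZT0 and ZT4 and 837 between ZT16 and ZT20. On caloric restriction, 1190 of 7592 peaked between ZT0 and ZT4 and 1466 between ZT16 and ZT20. Of called genes with a rhythm on control diet only, 162 peaked there between ZT0 and ZT4 and 21 between ZT16 and ZT20.

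Besides the endothelial markers, the rhythm test by edgeR called 4 of 7 hepatocyte markers, 2 of 8 for Kupffer and myeloid cells (Marco, Cd68), 2 of 6 for stellate cells (Reln, Dcn) and 2 of 4 testable for cholangiocytes (Krt19, Sox9). It called 2 of 4 for exocrine pancreas (Amy2a5, Ctrb1), 1 of 5 for lymphocytes (Cd79a), 1 of 5 for erythrocytes (Alas2) and 1 of 4 for adipocytes (Car3). Of all genes tested, 27.3% were called, and several of these shares lie near that. The neutrophil markers S100a8, S100a9 and Cxcr2 were not called, with adjusted p of 0.893, 0.714 and 0.293. The marker genes singled out here were chosen after their values were seen, and the causes were not tested. The adipocyte sum, mostly Car3, which hepatocytes also express, ran from 211 to 3152 CPM on caloric restriction and from 1967 to 4398 CPM on control diet.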
